A study of Mus musculus with 12 samples.

Results

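The genes *Slc22a3*, *Slc22a5*, *Slc22a7*, *Slc22a26*, *Slc22a27*, *Slc22a28*, *Slc22a29* and *Slc22a30* encode organic ion transporters of the solute carrier 22 (SLC22) family, and their hepatic expression was followed across diets. These 8 genes were chosen by name, with their levels in these livers already known, out of 26 genes of the table of 54532 genes whose symbols begin with Slc22. RNA-seq of the liver was performed for 12 male C57BL/6J mice, an inbred strain. From 5 weeks of age and for 26 weeks, groups of 3 mice were kept on normal diet (ND), on high-fat diet with no supplement (control), or on high-fat diet containing either 1% HYA or 1% LA. LA is linoleic acid, and gut bacteria convert it to the hydroxylated fatty acid HYA, so the control, HYA-treated and LA-treated mice shared the high-fat diet. Each library was bulk RNA of 1 mouse, in which fewer cells of a type and less RNA per cell cannot be told apart. The fragments assigned to genes ranged from 17169064 to 25220880 per mouse (median of 19610557).

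Proteins of the SLC22 family sit in the plasma membrane and carry charged small molecules, including drugs, vitamins, hormone conjugates and metabolic waste, into or out of cells. The family is divided into organic cation transporters, organic zwitterion and carnitine transporters, and organic anion transporters, and liver and kidney are its main sites. *Slc22a3* encodes the cation transporter OCT3, which takes up monoamines, *Slc22a5* encodes the carnitine transporter OCTN2, and *Slc22a7* encodes the anion transporter OAT2. *Slc22a26* to *Slc22a30* belong to a group of related anion transporter genes that expanded in rodents, and their substrates are less well known.

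Of the 8 genes, 5 lay in a row on chromosome 19, all on the minus strand (GRCm38). *Slc22a26* (ENSMUSG00000053303) spanned chr19:7781041-7802667, *Slc22a27* (ENSMUSG00000067656) chr19:7864388-7966027, *Slc22a28* (ENSMUSG00000063590) chr19:8062209-8131982, *Slc22a29* (ENSMUSG00000075044) chr19:8160165-8218900 and *Slc22a30* (ENSMUSG00000052562) chr19:8335371-8405111. No other protein-coding gene was annotated between them, and the gaps from *Slc22a26* onward measured 61720, 96181, 28182 and 116470 bases. The coding sequences fell into pairs that did not follow this order. *Slc22a28* and *Slc22a30* were 98.8% identical and *Slc22a27* and *Slc22a29* were 97.3% identical, whereas the 4 cross pairs were 91.5% to 92.2% identical. *Slc22a26* was 74.0% to 74.2% identical to the other members of the row. Outside it, *Slc22a5* (ENSMUSG00000018900, chr11:53864542-53891660), *Slc22a3* (ENSMUSG00000023828, chr17:12418960-12507704) and *Slc22a7* (ENSMUSG00000067144, chr17:46432183-46438457), also on the minus strand, were 48.8% to 53.4% identical to one another and to the genes of the row.

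The DNA just before the annotated transcription start held the same pair of *Slc22a28* and *Slc22a30* but not that of *Slc22a27* and *Slc22a29*. RefSeq (GRCm38.p6) gave start sites for 7 of the 8 genes and none for *Slc22a7*. In all but *Slc22a5*, bases after the start matched an annotated GENCODE M21 transcript, or a transcript's first bases lay within the window. The window of *Slc22a5* is therefore uncertain as the start of that gene. The 250 bases before the start are shown for the 3 genes of the row whose windows were most alike, read 5′ to 3′ on the minus strand, at chr19:8131983-8132232 (*Slc22a28*), chr19:8405106-8405355 (*Slc22a30*) and chr19:8218901-8219150 (*Slc22a29*). In *Slc22a28* and *Slc22a30*, capitals mark the 6 bases that differ between them. In *Slc22a29*, capitals mark the 36 bases that differ from both within the aligned stretch. Lower case does not always mean shared, since bases outside the aligned stretch are also in lower case. In *Slc22a29* it also covers bases that differ from only *Slc22a28* or only *Slc22a30*. With *Slc22a28*, *Slc22a29* aligned over 237 positions, of which 63 were not identical. With *Slc22a30* it aligned over 231, of which 59 were not identical.
*Slc22a28*: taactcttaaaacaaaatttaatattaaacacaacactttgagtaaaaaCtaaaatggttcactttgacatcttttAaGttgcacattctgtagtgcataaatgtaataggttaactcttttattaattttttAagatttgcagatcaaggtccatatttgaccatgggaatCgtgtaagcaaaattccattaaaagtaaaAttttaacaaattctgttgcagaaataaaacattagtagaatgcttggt
*Slc22a30*: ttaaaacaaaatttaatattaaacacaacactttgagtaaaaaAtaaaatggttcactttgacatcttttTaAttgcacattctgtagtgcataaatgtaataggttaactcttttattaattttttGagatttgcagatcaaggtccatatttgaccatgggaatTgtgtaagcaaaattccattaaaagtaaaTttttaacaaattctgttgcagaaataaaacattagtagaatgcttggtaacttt
*Slc22a29*: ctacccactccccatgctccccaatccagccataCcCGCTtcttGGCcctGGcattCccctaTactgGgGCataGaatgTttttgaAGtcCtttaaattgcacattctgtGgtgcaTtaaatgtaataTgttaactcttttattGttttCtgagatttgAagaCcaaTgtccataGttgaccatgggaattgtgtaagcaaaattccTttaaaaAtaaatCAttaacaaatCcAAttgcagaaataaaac
*Slc22a28* and *Slc22a30* were identical at 238 of 244 aligned positions (97.5%), and *Slc22a29* was 73.4% identical to *Slc22a28* and 74.5% to *Slc22a30*. The same stretch of *Slc22a27* was 49.6% identical to that of *Slc22a29*, its nearest relative by coding sequence, which lies within the 44.6% to 55.5% found for the pairs of members other than those shown, *Slc22a5* left out.

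In windows from 250 bases before to 50 bases after each start, 6 motifs were searched on both strands, with the uncertain window of *Slc22a5*, which held none of them, among the 7. The C/EBP-type word TTGCNNAA, found in 10.8% of 32851 promoters, was present in 3 of the 7 members with a promoter, 33 bases before the start of *Slc22a28*, 39 before that of *Slc22a30* and 15 before that of *Slc22a29*, each time as TTGCAGAA. These 3 matches lie in the stretch that the printed sequences share. Distances are counted from the RefSeq starts. That of *Slc22a30* lies inside the gene span given above, so its last printed bases belong to the annotated gene and lengthen its distance. The STAT5-type word TTCNNNGAA, present in 8.3% of all promoters, occurred in 1 member, *Slc22a26*, at 141 bases before the start. An HNF1 palindrome, the HNF4-type word CAAAGTCCA, a direct repeat of nuclear receptors and the word TATAAA occurred in none of the 7, and in 0.00913%, 0.475%, 0.0396% and 13.6% of all promoters. No motif searched overlapped another in these genes. A match of letters is a description of the sequence and not a binding site.

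The row of near-identical genes limits how well its members can be told apart. Of all 50-base words in the annotated transcripts of *Slc22a28*, 53.9% also occurred in another gene, 53.3% in *Slc22a30*, and of its 100-base words 37.0% did. For *Slc22a30* the shares were 34.3% and 21.1%, for *Slc22a27* 29.9% and 7.31%, and for *Slc22a29* 28.7% and 7.51%. *Slc22a5* shared 26.3% of its 50-base words, nearly all with *Slc22a21*, a carnitine transporter gene nearby, and *Slc22a7* shared none. How fragments that match several genes were counted is not given in the sources used here, so the split of fragments between the members of each pair is uncertain.

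The comparison of control with ND-fed mice asks how long-term high-fat feeding alters the transporters. Gene levels are given in FPKM, which corrects fragment numbers for the length of the gene and a total set for each library. Levels of different genes can thus be compared per length. The library totals implied by the values were not the fragments assigned to genes. They were below these in all ND-fed mice (15884208 against 17169064 in mouse 2). In all control mice they were above (21503661 against 19558364 in mouse 1). The row on chromosome 19 split into genes that were higher and genes that were lower in control mice, and the split followed the coding pairs rather than the map order. *Slc22a27* and *Slc22a29* were higher by 11.1- and 4.99-fold (ratio of group means, control over ND), and *Slc22a28* and *Slc22a30* were lower, with means 8.94- and 2.27-fold higher in ND-fed mice.

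**Figure D1:**
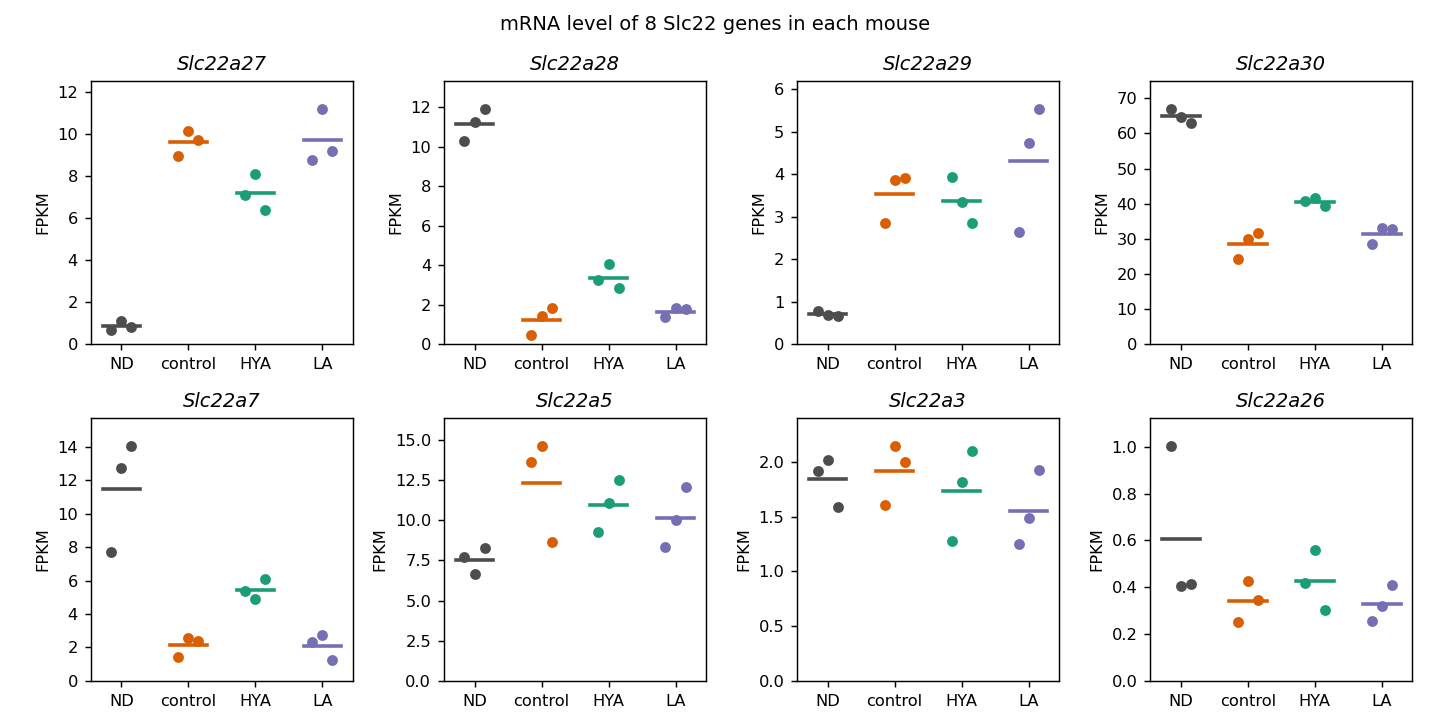
FPKM of each of the 8 Slc22 genes in each of 12 mice (points, 3 per group) with the group mean (bar), 1 panel per gene with its own linear axis from 0. *Slc22a27* and *Slc22a29* are lowest in ND-fed mice, *Slc22a7*, *Slc22a28* and *Slc22a30* are highest there, and HYA-treated mice lie between ND-fed and control mice in the latter 3.

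*Slc22a27* stood at 0.661, 1.11 and 0.827 FPKM in the 3 ND-fed mice and at 8.95, 10.1 and 9.71 FPKM in the 3 control mice. Its HYA-treated mice had 7.09, 8.10 and 6.39 FPKM and its LA-treated mice 8.78, 11.2 and 9.21 FPKM. All ND-fed mice lay below every mouse on the high-fat diet, and all HYA-treated mice lay below every control and LA-treated mouse. In ND-fed mice these values rested on 25 to 38 fragments per mouse.

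*Slc22a29* had 0.777, 0.693 and 0.661 FPKM in ND-fed mice, 2.85, 3.87 and 3.91 in control mice, 3.93, 3.35 and 2.85 in HYA-treated mice and 2.64, 4.73 and 5.53 in LA-treated mice. Its ND-fed mice were again the lowest, on 25 to 31 fragments each. The 3 groups on the high-fat diet overlapped one another, unlike those of *Slc22a27*.

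*Slc22a28* had 10.3, 11.2 and 11.9 FPKM in ND-fed mice and 0.464, 1.45 and 1.83 in control mice. It had 3.24, 4.05 and 2.83 FPKM in HYA-treated mice and 1.36, 1.83 and 1.79 in LA-treated mice. Control mouse 1, with 20 fragments, was the lowest of all 12 mice, and the order ND, HYA and then the overlapping LA and control groups held for every mouse.

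*Slc22a30* was the most abundant of the 8 genes in every group. It had 66.9, 64.8 and 62.9 FPKM in ND-fed mice, 24.3, 29.9 and 31.6 in control mice, 40.7, 41.7 and 39.2 in HYA-treated mice and 28.6, 33.1 and 32.7 in LA-treated mice. Its mice fell into the same order as those of *Slc22a28*, with ND above HYA and HYA above the overlapping LA and control groups.

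*Slc22a26* was barely detected. Its values were 1.00, 0.406 and 0.415 FPKM in ND-fed mice, 0.252, 0.429 and 0.344 in control mice, 0.420, 0.561 and 0.302 in HYA-treated mice and 0.255, 0.318 and 0.411 in LA-treated mice, on 16 to 52 fragments per mouse. The 4 groups overlapped, and with a mean of 0.426 FPKM over all mice it was below the minimum of 1 FPKM used for testing. The other genes of the neighbourhood were silent or nearly so, since *Slc22a19* and *Slc22a6* were at 0 in every mouse, and *Slc22a8* had a mean of 0.00569 FPKM.

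**Figure D2:**
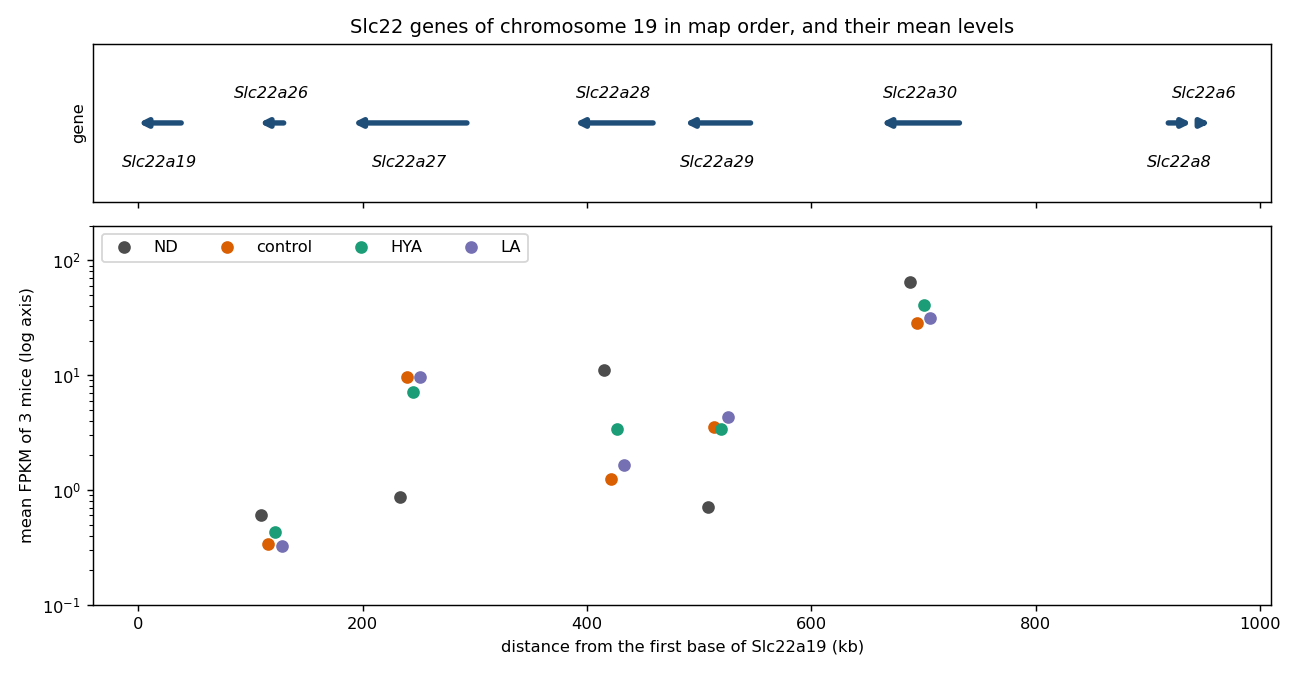
Upper panel, the Slc22 genes of the chromosome 19 region as arrows in the direction of transcription, against distance from the first base of *Slc22a19* in kb; lower panel, mean FPKM of 3 mice per group on a log axis, with points shifted sideways for visibility and none for *Slc22a19*, *Slc22a8* and *Slc22a6* (mean of at most 0.00569 FPKM). Along the map, the group with the lowest mean is ND at *Slc22a27*, control at *Slc22a28*, ND at *Slc22a29* and control at *Slc22a30*.

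On the log2(FPKM + 1) scale, which understates changes of low genes, the differences control minus ND (estimate ± SE, limma, n = 3 mice per group) were 2.51 ± 0.11 for *Slc22a27*, 1.40 ± 0.19 for *Slc22a29*, -2.49 ± 0.20 for *Slc22a28* and -1.16 ± 0.09 for *Slc22a30*. Since the genes were listed with these differences known, no p-value is given for them. A gene was called when its adjusted p was under 0.05 and its log2 difference beyond 1 in size. By this rule 5 of the 7 tested members were called, 2 higher and 3 lower, where 3.88% of the 11083 tested genes were called (2.25% higher and 1.63% lower). Without the limit on the fold change it was 6 of 7, against 35.3% of all tested genes, and 6 of 7 had groups that did not overlap, against 45.6%. These shares are a background to genes chosen for their pattern, and nothing is read from the contrast. When FPKM were rescaled to TPM, in which each library sums to the same total, the median log2 difference of all tested genes moved from -0.04 to 0.17, and *Slc22a30*, at -0.94, no longer passed the limit of 1 in size.

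Ratios of neighbouring genes within a mouse need no scaling between libraries. The ratio of *Slc22a28* to *Slc22a27*, in FPKM, was 10.1 to 15.6 in ND-fed mice, 0.0519 to 0.188 in control mice, 0.442 to 0.4995 in HYA-treated mice and 0.155 to 0.194 in LA-treated mice. Thus *Slc22a28* exceeded its neighbour in every ND-fed mouse and was below it in every mouse on the high-fat diet. The ratio of *Slc22a30* to *Slc22a29* was 86.1 to 95.2 in ND-fed mice, 7.72 to 8.55 in control mice, 10.4 to 13.8 in HYA-treated mice and 5.91 to 10.8 in LA-treated mice. HYA-treated mice were above every control mouse in both ratios, but 1 LA-treated mouse lay within the HYA range of the second. The ratio of the near-identical *Slc22a28* to *Slc22a30* also shifted, from 0.154 to 0.189 in ND-fed mice to 0.0191 to 0.0579 in control mice and 0.0720 to 0.0970 in HYA-treated mice, so that the former was the more reduced of the pair.

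**Figure D3:**
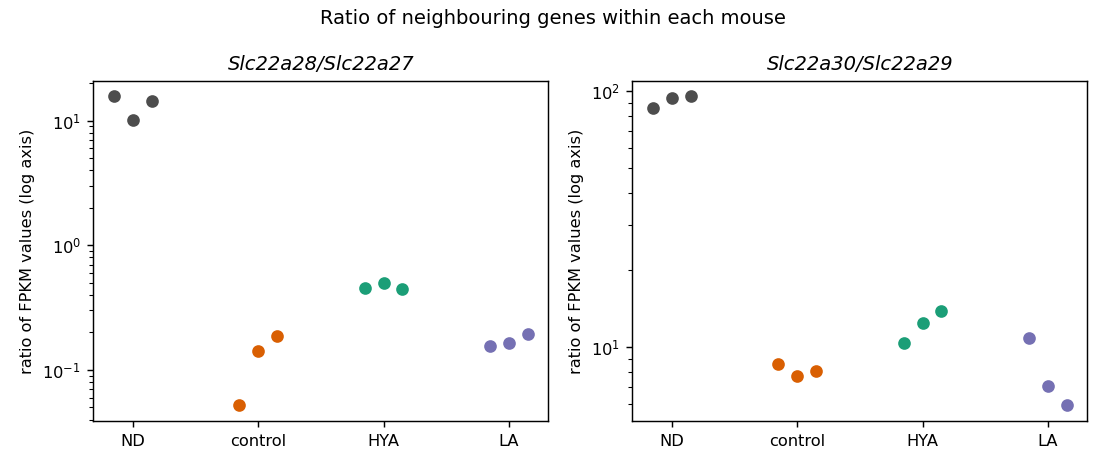
Ratio of FPKM of *Slc22a28* to *Slc22a27* (left) and of *Slc22a30* to *Slc22a29* (right) within each of 12 mice, on log axes, 3 points per group. ND-fed mice lie at 10.1 to 15.6 and 86.1 to 95.2, above all mice on the high-fat diet, and HYA-treated mice lie above all control mice in both panels.

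*Slc22a7*, the anion transporter OAT2, was highest in ND-fed mice, intermediate in HYA-treated mice and lowest in the other groups. It had 7.69, 12.8 and 14.1 FPKM in ND-fed mice, 1.46, 2.54 and 2.39 in control mice, 5.35, 4.88 and 6.12 in HYA-treated mice and 2.30, 2.72 and 1.26 in LA-treated mice. ND-fed mice lay above HYA-treated mice, and these above the overlapping control and LA-treated mice. The mean of ND-fed mice was 5.40-fold that of control mice, and the log2 difference control minus ND was -1.98 ± 0.23 (SE). Unlike the pairs of the row, it shared no 50-base word with another gene.

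*Slc22a5*, the carnitine transporter OCTN2, had 7.75, 6.64 and 8.28 FPKM in ND-fed mice, 13.7, 14.6 and 8.63 in control mice, 9.29, 11.1 and 12.5 in HYA-treated mice and 8.33, 10.05 and 12.1 in LA-treated mice. Every mouse on the high-fat diet was above every ND-fed mouse, the nearest being LA-treated mouse 1 at 8.33 and ND-fed mouse 3 at 8.28, and the groups on the high-fat diet overlapped. The mean ratio of control to ND was 1.63, with a log2 difference of 0.61 ± 0.18 (SE).

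Carnitine carries long-chain fatty acids into mitochondria, and 8 genes were listed for this system, all tested. In control against ND, where 3.88% of all tested genes were called (2.25% higher), 2 of the 8 were called, both higher. They were *Crat*, encoding carnitine acetyltransferase (log2 difference of 1.16, adjusted p = 1.11e-05), and *Cpt1a*, encoding the outer-membrane carnitine palmitoyltransferase of liver (1.07, adjusted p = 0.000596; limma with Benjamini-Hochberg adjustment). Without ND-fed mouse 2 or control mouse 2, *Cpt1a* stood at 0.999 and 0.92 and was not past the limit of 1. The median log2 difference of the list was 0.09 against -0.04 for all tested genes. This list and those of other transporters and of regulators below were chosen with earlier results of these data known. Their p-values are therefore descriptions and not tests. None of the 8 was called in HYA against control, where 1 had an unadjusted p under 0.05, in LA against control, where 0 did, or in HYA against LA, where 3 did, and voom on recovered fragments called 0 in each. Of all tested genes, 18.5%, 2.65% and 17.2% had an unadjusted p under 0.05 in these comparisons.

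*Slc22a3*, the monoamine transporter OCT3, was low and showed no separation of groups. It had 1.92, 2.02 and 1.59 FPKM in ND-fed mice, 1.61, 2.15 and 1.9999 in control mice, 1.28, 1.82 and 2.10 in HYA-treated mice and 1.25, 1.49 and 1.93 in LA-treated mice. All 4 groups overlapped, and the log2 difference control minus ND was 0.04 ± 0.13 (SE). The gene overlaps *Plg*, the plasminogen gene on the opposite strand, by 426 bases, and 8.27% of its 50-base words occur in *Plg*, whose group means were 636, 344, 446 and 367 FPKM in ND-fed, control, HYA-treated and LA-treated mice. Whether the counting used strand is not given in the sources used here, so fragments of the 2 genes over the overlap cannot be told apart.

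The comparison of HYA-treated with control mice asks what HYA adds to the same high-fat diet. For the 4 genes that separated HYA-treated from control mice, the differences were smaller in size than those of the diet and lay in the opposite direction. Both comparisons use the same 3 control mice with opposite sign, so the spread of these mice alone tends to give opposite directions. By ratio of means, HYA-treated over control, *Slc22a28* was at 2.70, *Slc22a7* at 2.56 and *Slc22a30* at 1.42, with all 3 HYA-treated mice above all 3 control mice, and *Slc22a27* was at 0.750 with all 3 below. On the log2 scale the differences were 1.06 ± 0.23 for *Slc22a7*, 1.00 ± 0.20 for *Slc22a28*, 0.50 ± 0.09 for *Slc22a30* and -0.37 ± 0.11 for *Slc22a27* (SE, n = 3 mice per group). *Slc22a5*, *Slc22a3* and *Slc22a29*, at -0.13, -0.10 and -0.05, had overlapping groups. HYA-treated mice did not reach the ND range for any of the 6 genes that separated control from ND, and ND means were 3.31-fold (*Slc22a28*), 2.11-fold (*Slc22a7*) and 1.60-fold (*Slc22a30*) those of HYA-treated mice. *Slc22a27* and *Slc22a29* were 8.30- and 4.75-fold above ND.

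In this comparison 2 of the 7 tested members were called, both higher (*Slc22a7* and *Slc22a28*), where 0.307% of all tested genes were called (0.162% higher). At adjusted p alone it was 3, with *Slc22a30*, against 2.8%, and 4 of 7 had groups that did not overlap, against 21.6%. As the genes were chosen with this contrast known, nothing is read from these shares. Both calls lay close to the limits of the rule. With 1 mouse left out at a time, the log2 difference was 0.89 to 1.16 for *Slc22a7* and 0.72 to 1.20 for *Slc22a28*. None was called without control mouse 1, HYA-treated mouse 1, 2 or 3, LA-treated mouse 2 or ND-fed mouse 2, and 1 was called without control mouse 3 or LA-treated mouse 1 or 3. The direction stayed the same in each case.

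**Figure D4:**
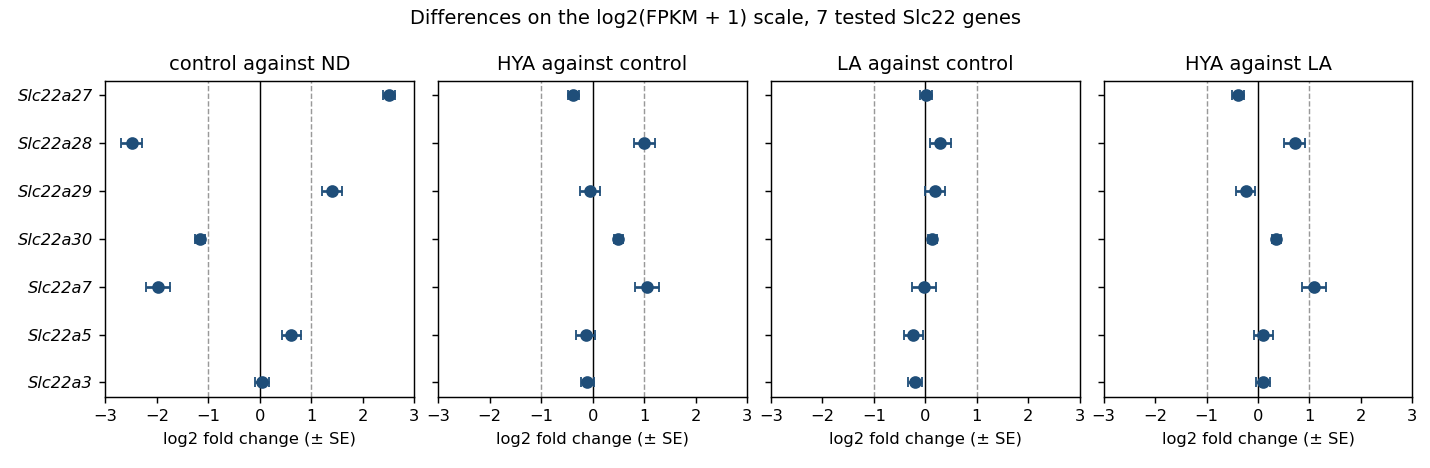
Log2 differences of the 7 tested Slc22 genes on the log2(FPKM + 1) scale with SE (n = 3 mice per group) in the 4 comparisons. In HYA against control, all 7 genes lie on the other side of 0 from their place in control against ND. The HYA-treated and control groups of *Slc22a3*, *Slc22a5* and *Slc22a29* overlapped. All LA against control differences lie between -0.24 and 0.29. Control against ND and HYA against control use the same control mice.

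The LA supplement, the parent fatty acid of HYA, gave no separation. Against control, the log2 differences of the 7 tested members ranged from -0.24 (*Slc22a5*) to 0.29 (*Slc22a28*), and every member had overlapping groups. By limma with Benjamini-Hochberg adjustment 0 of 7 were called, with 0 at an unadjusted p under 0.05 and 0 by voom on recovered fragments, where 0% of all tested genes were called, 2.65% had an unadjusted p under 0.05 and 7.55% had groups that did not overlap. LA-treated mice stood in the same relation to ND as control mice, above it for *Slc22a5*, *Slc22a27* and *Slc22a29* and below it for *Slc22a7*, *Slc22a28* and *Slc22a30*, in every mouse.

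HYA against LA compares fatty acids given at the same share of the diet for the same time, which differ in that HYA has a hydroxy group where LA has a double bond. The ratio of means, HYA over LA, was 2.60 for *Slc22a7*, 2.03 for *Slc22a28*, 1.29 for *Slc22a30* and 0.740 for *Slc22a27*, and the groups did not overlap for these 4 of the 7 tested members, against 25.2% of all tested genes. The log2 differences were 1.09 ± 0.23, 0.71 ± 0.20, 0.36 ± 0.09 and -0.39 ± 0.11 (SE), and those of *Slc22a29*, *Slc22a5* and *Slc22a3* were -0.24 ± 0.19, 0.11 ± 0.18 and 0.09 ± 0.13. By limma with Benjamini-Hochberg adjustment 0 of 7 were called, with 4 at an unadjusted p under 0.05 and 1 by voom on recovered fragments, where 0.108% of all tested genes were called and 17.2% had an unadjusted p under 0.05. Without control mouse 1 or control mouse 2, 1 of 7, *Slc22a7*, was called. HYA against control and HYA against LA share the HYA-treated mice.

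The rest of the family is what remained after the 8 members were chosen with their levels known. Of the 18 other Slc22 genes in the table, 1 of them a pseudogene, 5 reached the mean of 1 FPKM and 4 (*Slc22a6*, *Slc22a16*, *Slc22a19* and *Slc22a20*) were at 0 in every mouse. By mean over all mice, *Slc22a18* had 64.5, *Slc22a23* 18.2, *Slc22a15* 1.48 and *Slc22a4* 1.34 FPKM. None of the 5 was called in any of the 4 comparisons, by limma or by voom. Of all tested genes, limma called 3.88% in control against ND and 0.307% in HYA against control. It called 0% in LA against control and 0.108% in HYA against LA. As the choice of the 8 members shaped this remainder, nothing is read from the absence of calls. In control against ND, 2 had an unadjusted p under 0.05, *Slc22a23* at -0.26 (adjusted p = 0.0706) and *Slc22a4*, the zwitterion transporter OCTN1, at -0.39 (adjusted p = 0.106; limma, Benjamini-Hochberg). No tested Slc22 gene outside the 8 had an unadjusted p under 0.05 in LA against control. Of all tested genes, 45.1% had an unadjusted p under 0.05 in control against ND and 2.65% in LA against control.

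Other hepatic uptake and efflux transporters were taken as a list of 20 genes, 19 of them tested. In control against ND, 3 were called, all lower: *Slco1a1*, an organic anion uptake carrier (log2 difference of -3.14, adjusted p = 0.000251), *Abcb11*, the bile salt export pump (-1.02, adjusted p = 0.000196), and *Slc17a2*, an organic anion and phosphate carrier (-1.02, adjusted p = 7.26e-05; limma, Benjamini-Hochberg). Of all tested genes, 3.88% were called in this comparison (1.63% lower). At adjusted p alone 2 of the list were higher and 10 lower, against 16.2% and 19.1% of all tested genes. The list median was -0.38 against -0.04 for all tested genes. *Abcb11* was not past the limit of 1 without control mouse 1 (-0.88), without ND-fed mouse 3 (-0.99) or in TPM (-0.79), and *Slc17a2* was not without control mouse 1 (-0.96), control mouse 3 (-0.99) or ND-fed mouse 1 (-0.93) or in TPM (-0.81). In HYA against control 1 was called, *Slco1a1* at 2.30 (adjusted p = 0.0271, limma), and 3 were higher at adjusted p alone. Of all tested genes, 0.307% were called there and 1.57% were higher at adjusted p alone. The *Slco1a1* call was absent without control mouse 3 or without HYA-treated mouse 1, 2 or 3. In LA against control 0 were called, with 0 at an unadjusted p under 0.05 by limma and 0 called by voom. In HYA against LA 0 were called by limma, with 8 at an unadjusted p under 0.05, and 1 by voom. Of all tested genes, 2.65% and 17.2% had an unadjusted p under 0.05 in these 2 comparisons. *Slco1a1*, at 2.01 in HYA against LA, was called there without control mouse 1 or control mouse 2.

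Of 13 transcription factors and receptors known to control hepatocyte genes, 12 were tested. In control against ND 0 were called by limma and 0 by voom, with 5 at an unadjusted p under 0.05. Of all tested genes, 45.1% had an unadjusted p under 0.05 there, 35.3% passed adjusted p alone and 19.1% did so as lower genes. At adjusted p alone 2 were lower, which are named after their values were seen: *Ghr*, the growth hormone receptor, at -0.73 (adjusted p = 0.000159), and *Hnf4a*, a nuclear receptor of hepatocytes, at -0.54 (adjusted p = 0.000531; limma, Benjamini-Hochberg). Beside those shares, nothing is read from these 2 genes. None was called in HYA against control, LA against control or HYA against LA, where voom called 0. In these, 1, 0 and 2 had an unadjusted p under 0.05 by limma, against 18.5%, 2.65% and 17.2% of all tested genes.

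Correlations over mice are descriptions, since the 12 mice share 4 diets and the groups set most of the spread. On the log2 scale *Slc22a28* and *Slc22a30* had r = 0.994 over 12 mice and 0.985 over the 9 mice on the high-fat diet, and part of this pair's fragments could be assigned to either gene. *Slc22a7* correlated with *Slc22a28* at 0.931 and 0.812 and with *Slc22a30* at 0.923 and 0.837. *Slc22a27* and *Slc22a29* had r = 0.949 over 12 mice but 0.474 over the 9, and *Slc22a27* and *Slc22a28* -0.921 and -0.510.

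Among 9789 protein-coding genes outside the family, those closest to *Slc22a30* over the 12 mice by Pearson r were *Cyp2c29* (0.994), *Adh4* (0.993) and *Ugt2b1* (0.990), and those closest to *Slc22a28* were *Cyp2c29* (0.992), *Cyp4f14* (0.991) and *Adh4* (0.990). *Cyp2c29* and *Cyp4f14* encode cytochromes P450, *Adh4* an alcohol dehydrogenase and *Ugt2b1* a glucuronosyltransferase. *Slc22a7* was closest to *Azgp1* (0.983), *Lipc*, encoding hepatic lipase (0.981), and *Serpina1b*, an alpha-1-antitrypsin gene (0.979). *Slc22a27* was closest to *Plin2*, which coats lipid droplets (0.992), *Hadhb*, of mitochondrial fatty acid oxidation (0.990), and *Cyp17a1*, a steroid hydroxylase (0.988). *Slc22a29* was closest to *Fam107b* (0.967), *Tmem47* (0.958) and *Ghitm* (0.958), *Slc22a5* to *Pla2g6* (0.952), *Ccdc157* (0.951) and *Angel2* (0.949), and *Slc22a3* to *Ikbkb* (0.859), *Chmp1a* (0.842) and *Cops7a* (0.833). Over the 9 mice on the high-fat diet, r fell to 0.610 to 0.746 for the genes named with *Slc22a27* and to 0.707 to 0.787 for those of *Slc22a29*, and it was 0.962 to 0.987 for those of *Slc22a7*, *Slc22a28* and *Slc22a30*. The 3 closest genes by Spearman's rho shared 2 with these lists for *Slc22a29* and *Slc22a30* and 1 for *Slc22a3* and *Slc22a7*. They shared 0 for *Slc22a5*, *Slc22a27* and *Slc22a28*. By Pearson r over the 9 mice on the high-fat diet, 2 were shared for *Slc22a7*, *Slc22a28* and *Slc22a30*. For *Slc22a3*, *Slc22a5*, *Slc22a27* and *Slc22a29*, 0 were shared.

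The tissue label was checked against cell type markers, and the markers moved with the diets. The summed level of hepatocyte markers (7 of 8 in the table, all expressed) was 41644 to 42895 FPKM in ND-fed, 27216 to 30937 in control, 35300 to 36441 in HYA-treated and 30200 to 30661 in LA-treated mice, an order of groups that *Slc22a7*, *Slc22a28* and *Slc22a30* share in their ND and HYA groups. *Alb* made up most of this sum, with means of 29221.5, 20497.2, 24550.2 and 21466.1 FPKM in the same order of groups. In control against ND, 6 of 7 hepatocyte markers were lower at adjusted p alone, as were 19.1% of all tested genes. Bile duct markers (4 of 8 tested) summed to 19.7 to 28.7, 80.6 to 176, 40.2 to 53.9 and 83.5 to 139 FPKM in the same order of groups, stellate cell and fibroblast markers to 34.0 to 44.3, 76.6 to 102, 61.1 to 74.5 and 82.0 to 98.9 FPKM, macrophage markers to 189 to 292, 274 to 280, 197 to 277 and 271 to 285 FPKM, and endothelial markers to 68.7 to 84.7, 96.0 to 98.3, 92.3 to 97.6 and 93.2 to 98.2 FPKM. Markers of kidney tubule, the other main site of the family, were at or near 0 (sum of 0.163 to 0.774 FPKM over 10 genes, 5 of them at 0 in every mouse). The bile duct sum was mostly *Spp1*, with means of 21.0, 118, 42.5 and 102 FPKM in ND-fed, control, HYA-treated and LA-treated mice. Of the 4 tested bile duct markers, 3 were higher in control against ND at adjusted p alone, as were 16.2% of all tested genes. The other, *Sox9*, was at a log2 difference of -0.05. By the same rule 5 of 8 stellate cell and fibroblast markers and 3 of 8 endothelial markers were higher. Of 8 macrophage markers, 3 were higher and 1 was lower. Such sums follow their most abundant genes and do not measure cell numbers. The part of these marker shifts in the differences of the transporters was not tested.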

How the data were processed

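RNA-seq of liver was analysed for 12 mice in 4 groups of 3. According to the submitters' processing notes, reads were handled with fastp, HISAT2 2.0.5 and featureCounts 1.5.0-p3 on GRCm38. The values, as deposited by the authors, are FPKM for each gene in each mouse. The counting of multi-mapping fragments and the use of strand are not given in the sources used here. Gene coordinates were identical to GENCODE M21 for 98.33% of 54409 shared identifiers. Multiplied by gene length, 100% of the values were whole multiples of the smallest step of their column (relative tolerance of 0.01), and fragments were recovered in this way. No 2 mice had identical values, and correlations across genes within groups were 0.983 to 0.990.

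Genes averaging 1 FPKM or more were tested on log2(FPKM + 1) with limma 3.58.1 (R 4.3.3, 1 fit over all 12 mice, empirical Bayes with trend, two-sided, Benjamini-Hochberg adjustment over 11083 genes). A count test had been foreseen only for a table of counts. Calls required an adjusted p under 0.05 and an absolute log2 difference above 1. The mice are separate animals, and whether they share cages or litters is not given in the sources used here. The fit was also run on simulated counts, with a looser limit on the log2 difference than that of the calls. These counts were not scaled for depth. The run is therefore not a test of the calling rule. Coding sequences and start regions were aligned in pairs over their whole length, end gaps free, with Biopython 1.88, and word sharing was counted over GENCODE M21 transcripts.

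The 8 genes and all gene lists were chosen with earlier results of these data known. All 8 genes were named, as well as other Slc22 genes (1 tested gene is not reported here), called genes of the carnitine, transporter and regulator lists (up to 5 per list) and the 3 protein-coding genes outside the family that correlated best with each tested member. Alternatives were another pseudocount, other filters, size factors, TPM, a replicate block, fits of 2 groups, no limit on fold change, voom on recovered fragments and leaving out each mouse. Voom took the library totals implied by FPKM as library sizes.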

Additional observations from a re-analysis of the deposited data

How the results depend on the processing

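No called difference changed direction under any alternative. *Slc22a27*, *Slc22a28*, *Slc22a29* and *Slc22a7* were called in control against ND in 21 of 21 alternatives and *Slc22a30* in 20 of 21. In HYA against control *Slc22a7* was called in 10 and *Slc22a28* in 11 of 21, and the number of members called, 2, became 1 with a pseudocount of 0.1, 1 with a minimum mean of 0.3 FPKM, 0 with no filter and 0 with only the 2 groups fitted. With 1 mouse left out it ranged from 0 to 2. In HYA against LA it was 0 and became 1 with voom, and it ranged from 0 to 1 with 1 mouse left out. For the carnitine, transporter and regulator lists together, the 5 calls of control against ND became 17 with no limit on fold change and ranged from 3 to 5 with 1 mouse left out. The 1 call of HYA against control became 0 with no filter, 0 with the 2 groups fitted and 3 with no limit on fold change, and ranged from 0 to 1 with 1 mouse left out. The 0 calls of HYA against LA became 1 with the 2 groups fitted, 1 with no limit on fold change and 1 with voom, and ranged from 0 to 1 with 1 mouse left out. The causes were not tested.

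Over all tested genes, the 430 calls of control against ND became 692 with a pseudocount of 0.1, 711 in TPM, 3910 with no limit on fold change and 1361 with voom, and the share of higher genes went from 57.9% to 80.6% in TPM and 76% with voom. The 34 calls of HYA against control became 11 with no filter, 0 with the 2 groups fitted, 310 with no limit on fold change and 107 with voom, and ranged from 0 (without HYA-treated mouse 2) to 68 (without control mouse 2). Their share of higher genes, 52.9%, was 35.3% in TPM and 22.4% with voom. The 12 calls of HYA against LA became 0 with no filter, 27 in TPM, 25 with the 2 groups fitted, 54 with no limit on fold change and 53 with voom, and ranged from 0 to 29 with 1 mouse left out.

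Whether the replicate numbers pair the mice is not given in the sources used here. Correlations of deviations from group means of same-numbered mice ranged from -0.396 to 0.294. With 3 mice per group and no comparison with differently numbered mice, they cannot settle this. A replicate block took the members called in HYA against LA from 0 to 1, the genes of the 3 lists from 0 to 1 and all tested genes from 12 to 29. Values near or below 1 FPKM rested on few fragments (16 to 52 per mouse for *Slc22a26*), which limits *Slc22a26* in all groups, *Slc22a27* and *Slc22a29* in ND-fed mice and *Slc22a28* in control mice.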
